A study of Mus musculus and Homo sapiens with 40 samples.

Results

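The loci of 10 mouse AP-1 genes were examined in ChIP-seq peak lists of a blood progenitor line: *Fos*, *Fosb*, *Fosl1* and *Fosl2* of the Fos family, *Jun*, *Junb* and *Jund* of the Jun family, and *Batf*, *Batf2* and *Batf3* of the Batf family. They were chosen by family, as 10 of the 21757 protein-coding genes on the standard chromosomes. A locus was the gene with 50 kb on both sides in mm39, and a peak belonged to it when its summit lay inside.

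The cells were HPC-7, a mouse hematopoietic progenitor line, transduced with a retrovirus for CEBPA p42-ERT2 or CEBPA p30-ERT2 and sorted for GFP. p42 is the full-length CEBPA protein and p30 the shorter isoform that lacks part of the N-terminal transactivation region, and ERT2 is a modified estrogen receptor fragment that holds the fusion protein outside the nucleus until hydroxytamoxifen is given. H3K27ac, a mark of active promoters and enhancers, was measured in p42 and p30 cells, 3 samples for each group, that were untreated or given LPS, a bacterial product that triggers inflammatory signaling, for 2 h at a dose of 100 ng/mL. The enhancer mark H3K4me1 came from 2 untreated samples of each line. CEBPA came from 1 sample per line and antibody, against CEBPA itself or against the ER part of the fusion. The anti-ER samples are labeled untreated, while the anti-CEBPA labels name no treatment and were taken as untreated. The study describes hydroxytamoxifen for cells with such fusions, while the labels do not name it. The anti-CEBPA antibody does not tell the fusion protein from endogenous CEBPA.

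AP-1 is a dimer of bZIP proteins. Jun proteins pair with each other or with a Fos protein, Fos proteins need a partner, and Batf proteins pair with Jun proteins without a transactivation domain of their own. *Fos*, *Fosb*, *Jun* and *Junb* are immediate early genes, which are transcribed within minutes of a stimulus by factors already present in the cell, and AP-1 is a common partner of inflammatory transcription in myeloid cells.

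Because the peaks of a group were called on its pooled samples, or on the only library there was, replicates could not be compared and p-values are not given. The effect of the isoform and that of the line cannot be told apart. The lists held between 107141 peaks (p42 with LPS) and 142419 peaks (p30 with LPS) for H3K27ac, and the number of reads behind them is unknown. Positions in a list are therefore given as rank in percent of the list, by the authors' −log10 p-value, with the strongest peak nearest to 0. Ranges in parentheses are Wilson intervals at 95%, which reflect nothing but counting error. As the cells were measured in bulk, a mark in fewer cells and a weaker mark in every cell cannot be told apart. The promoters of 9 of 9 progenitor marker genes, among them *Kit*, *Gata2* and *Runx1*, had H3K27ac in all 4 lists, and those of *Ms4a1*, *Cd3e*, *Cd8a*, *Alb* and *Apoa1*, markers of B cells, T cells and hepatocytes, had it in none. The 3 macrophage markers *Adgre1*, *Csf1r* and *Cd14* had it in all 4 lists as well, as did *Ltf*, while *Ly6g* and *Hbb-bt* had it in none and *Camp* in 3.

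The sequences that follow are the strongest CEBPA sites of the AP-1 loci, each found with both antibodies in both lines. One site was taken per gene, that with the best rank in the p42 anti-CEBPA list, and *Jund* and *Batf2* had no such site. That of *Junb*, 1.1 kb from its start, held none of the searched letters and is not printed. Each line gives 151 bases of mm39, plus strand, centered on the p42 anti-CEBPA summit, and the name gives the distance of that summit from the gene start, which is the start of the canonical transcript. Capitals mark letters of the searched motifs that were found, which were TTGCNNAA (CEBP), TGATGCAA (CEBP:ATF4 composite), TGTTGCAA (CEBP:AP1 composite) and TTACNNAA, a variant of the CEBP letters that was added after the sequences were seen. The CEBP letters can overlap those of the composites and of the variant. The first letters of a CEBP motif, TTGC, are read as GCAA on the other strand, and both strands were searched. The sites lie at chr5:32296851-32297001 in an intron of *Fosl2*, and between genes at chr12:85478825-85478975, chr7:19072062-19072212, chr19:5494639-5494789, chr4:94893800-94893950, chr12:85706305-85706455 and chr1:190857944-190858094. The last of the lines, at chr12:85537338-85537488, is a second *Fos* site of all 4 lists, shown because it lies in a region whose H3K27ac rank differed between the lines and holds the CEBP:AP1 letters.
Fosl2 +4.2 kb: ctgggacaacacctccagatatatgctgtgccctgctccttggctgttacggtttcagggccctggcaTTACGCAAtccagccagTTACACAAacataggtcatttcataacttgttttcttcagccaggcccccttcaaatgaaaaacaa
Fos -41.8 kb: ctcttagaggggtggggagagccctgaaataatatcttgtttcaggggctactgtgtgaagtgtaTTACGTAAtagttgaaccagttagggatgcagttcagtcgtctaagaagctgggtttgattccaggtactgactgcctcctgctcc
Fosb -28.2 kb: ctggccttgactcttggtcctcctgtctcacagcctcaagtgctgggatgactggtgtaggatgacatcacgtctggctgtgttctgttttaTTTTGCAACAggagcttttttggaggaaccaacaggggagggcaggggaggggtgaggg
Fosl1 -2.9 kb: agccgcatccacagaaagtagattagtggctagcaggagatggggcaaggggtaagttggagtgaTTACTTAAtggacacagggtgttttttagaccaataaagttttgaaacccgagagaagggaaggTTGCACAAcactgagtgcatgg
Jun +46.6 kb: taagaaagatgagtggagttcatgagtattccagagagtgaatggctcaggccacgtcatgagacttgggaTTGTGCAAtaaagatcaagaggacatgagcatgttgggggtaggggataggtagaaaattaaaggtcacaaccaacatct
Batf -27.0 kb: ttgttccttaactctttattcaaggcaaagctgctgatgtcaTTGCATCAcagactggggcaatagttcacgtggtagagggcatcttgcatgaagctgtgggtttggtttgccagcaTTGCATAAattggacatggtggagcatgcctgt
Batf3 +27.5 kb: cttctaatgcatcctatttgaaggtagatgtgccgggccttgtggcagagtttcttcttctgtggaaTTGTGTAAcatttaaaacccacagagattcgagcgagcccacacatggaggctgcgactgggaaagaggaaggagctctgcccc
Fos +16.8 kb: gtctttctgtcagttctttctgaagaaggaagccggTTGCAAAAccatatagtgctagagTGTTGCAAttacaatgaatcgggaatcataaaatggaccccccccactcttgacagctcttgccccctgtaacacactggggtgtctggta

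In *Fosl2*, *Fos*, *Fosl1*, *Jun* and *Batf3* a match covered the summit or ended within a few bases of it. TTACGTAA at the *Fos* site began 10 bases before the summit. TTACGCAA at the *Fosl2* site began 7 bases before it and fits both the CEBP letters and the added variant. At *Batf* the CEBP:ATF4 letters, read on the other strand as TTGCATCA, began 33 bases before the summit. In the p42 anti-CEBPA list TTGCNNAA was present within 200 bp around the summit at 50.7% of all sites, TTACNNAA at 28.9%, TGATGCAA at 10.1% and TGTTGCAA at 6.35%. A match describes the letters and does not show which protein binds there.

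The question at the promoters was whether AP-1 genes carried the mark of activity in these cells and whether it moved with LPS. An H3K27ac peak overlapped the promoter, from 1000 bp upstream to 100 bp downstream of the start, of 7 of the 10 genes in all 4 lists (interval 39.7 to 89.2%): *Fos*, *Fosb*, *Fosl2*, *Jun*, *Junb*, *Jund* and *Batf*. Among all protein-coding genes the share was 48.9% in untreated and 48.4% in LPS-treated p42 cells, and 48.5% and 49.9% in p30 cells, and 46.6% had a peak in all 4 lists. *Fosl1*, which encodes a Fos protein without the C-terminal transactivation domain of Fos, and *Batf2* and *Batf3* had no promoter peak in any list. For *Batf2* this depended on the start chosen, since the 5′ end of the whole gene annotation had a peak in all 4 lists.

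The 7 promoter peaks were strong. Their median rank was 1.10% and 2.33% of the list in p42 cells and 1.85% and 1.76% in p30 cells, untreated and with LPS. Over all genes with a promoter peak the corresponding medians were 4.57%, 5.49%, 4.34% and 4.15%.

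*Fos*, which encodes the founding Fos protein, ranked at 0.924% untreated and 0.748% with LPS in p42 cells, and at 0.916% and 1.38% in p30 cells. *Fosb*, its closest paralog in the list, ranked at 0.707% and 0.461% in p42 cells, and at 0.714% and 1.04% in p30 cells. Both genes thus had nearly the same rank in the untreated lines and a better rank with LPS in p42 but a worse one in p30. In places of the list, *Fos* went from 1195 to 801 in p42 and from 1275 to 1961 in p30, and *Fosb* from 915 to 494 and from 994 to 1488. The fold enrichment at the *Fos* summit was 76.3 and 67.9 in p42 and 65.6 and 64.0 in p30, so the better place with LPS in p42 went with a lower fold in a shorter list. For *Fosb* the fold was 72.2 and 76.7 in p42, and 71.4 and 61.7 in p30.

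*Fosl2*, whose product also lacks the C-terminal transactivation domain of Fos, ranked at 2.54% and 4.37% in p42 cells, and at 2.53% and 2.37% in p30 cells. Its promoter lay in a broad peak, 7124 and 5569 bp wide in p42 and 6313 and 6247 bp wide in p30. The lines again began at almost the same rank, but here LPS went with a worse rank in p42.

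*Jun*, the founding Jun gene, ranked at 6.34% and 7.66% in p42 cells, and at 5.03% and 3.46% in p30 cells. Its fold enrichment was 25.4 and 23.0 in p42 and 24.7 and 40.0 in p30. *Junb*, which can restrain Jun, ranked at 1.10% and 2.33% in p42 and at 1.85% and 1.76% in p30. *Jund*, the Jun member that is expressed steadily in many cells, ranked at 0.755% and 1.28% in p42 and at 1.12% and 0.860% in p30. The 3 Jun genes had a worse rank with LPS in p42 and a better one in p30. *Batf*, a partner of Jun proteins in lymphocytes and other immune cells, had the weakest of the 7 promoter peaks, at 7.95% and 10.5% in p42 and 8.22% and 7.01% in p30.

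Taken as counts, 2 of the 7 promoters ranked better with LPS in p42 cells, where 23.5% of all genes did, and 5 of 7 in p30 cells, where 65.4% did. For a change of rank, all genes means those with a promoter peak in each list compared, 10353 in p42 and 10429 in p30. The p42 list shortened with LPS, from 129369 to 107141 peaks, which worsens a rank in percent, while the p30 list went from 139210 to 142419. *Fos* and *Fosb* moved up in p42 and down in p30 as 3.65% of 10139 genes did, and the other 5 moved the opposite way as 45.7% did. All 7 thus moved in opposite directions in the lines, as 49.4% of these 10139 genes did. With the same number of peaks taken from each list, the same genes ranked better, *Fos* and *Fosb* in p42 and the other 5 in p30. The shares of all genes were then 48.6% in p42 and 62.1% in p30, and 10.9% moved like *Fos* and *Fosb*. Ranked by fold enrichment, *Fos* and *Fosb* again ranked better in p42, but in p30 only *Jun*, *Jund* and *Batf* did. A rank better by at least 1.5 times was reached by *Fosb* in p42, where 4.57% of all genes reached it, and by none of the 7 in p30, where 12.9% did. For the worse, *Fosl2*, *Junb* and *Jund* moved by over 1.5 times in p42, and *Fos* in p30. The share of all genes that did so was not counted, so these moves cannot be read as particular to these genes.

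**Figure D1:**
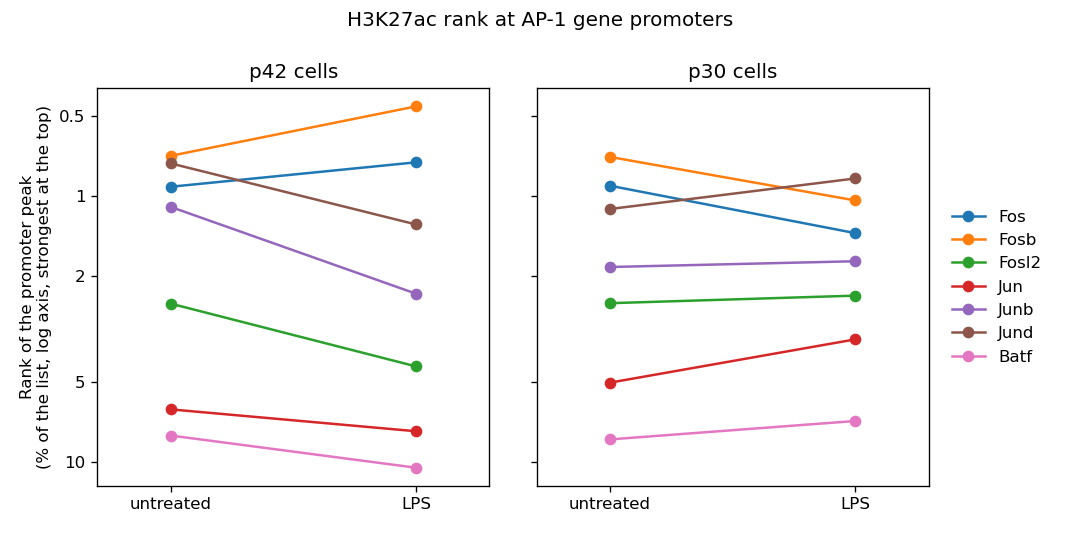
Rank of the H3K27ac peak at the promoters of 7 AP-1 genes, in percent of the list on a log axis with the strongest at the top, untreated and with LPS, in p42 (left) and p30 cells (right). Each point is 1 pooled list; *Fos* and *Fosb* go up with LPS in p42 and down in p30, and the other 5 genes go the opposite way.

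The promoter letters of *Fos* and *Fosb* are shown because these 2 genes shared this course. Each line gives 300 bases of mm39 on the gene's strand, from 350 to 51 bases upstream of the start, at chr12:85520308-85520607 on the plus strand and chr7:19044027-19044326 on the minus strand. Capitals mark the CArG box, the binding letters of serum response factor, a factor known to drive immediate early genes.
Fos promoter: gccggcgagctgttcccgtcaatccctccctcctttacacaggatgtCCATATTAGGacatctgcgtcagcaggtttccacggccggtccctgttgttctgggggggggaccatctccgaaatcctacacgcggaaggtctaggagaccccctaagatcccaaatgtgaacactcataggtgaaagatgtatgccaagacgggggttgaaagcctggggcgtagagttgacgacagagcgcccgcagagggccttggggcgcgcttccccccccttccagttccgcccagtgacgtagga
Fosb promoter: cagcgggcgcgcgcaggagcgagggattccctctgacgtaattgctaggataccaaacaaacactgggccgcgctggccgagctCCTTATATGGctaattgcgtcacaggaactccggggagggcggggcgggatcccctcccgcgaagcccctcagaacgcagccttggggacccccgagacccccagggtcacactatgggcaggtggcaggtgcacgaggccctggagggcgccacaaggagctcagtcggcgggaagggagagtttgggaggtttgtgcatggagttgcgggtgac

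The CArG box began 303 bases upstream of the *Fos* start and 266 bases upstream of the *Fosb* start. It was present in this window in 1.59% of all 21757 promoters and in no other of the 10. Genes with the box and a promoter H3K27ac peak in all 4 lists numbered 137. Of these, 11 (8.03%, 4.54 to 13.8%) moved like *Fos* and *Fosb*, which are among them, beside 3.65% of all genes. The opposite course was taken by 60 (43.8%, 35.8 to 52.2%), beside 45.7% of all genes. The *Fos* and *Fosb* promoters were chosen by this course and are counted, so these shares are not independent of that choice. The count was not repeated with equal numbers of peaks, where 10.9% of all genes moved like *Fos* and *Fosb*. Whether the box has a part in this course was not tested. NF-kB letters were also found in the *Fos* and *Fosb* promoters, 208 and 182 bases upstream, and in *Batf* 205 bases upstream, against 7.87% of all promoters. *Jund* held the CRE letters TGACGTCA, found in 0.942% of all promoters, and the CEBP letters, found in 12.3%, and the other 6 promoters held none of the searched motifs.

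Across whole loci, H3K27ac was measured as the base pairs under peaks, here called cover. The 10 AP-1 loci had a median cover of 23693 and 22087 bp in p42 cells and 23486 and 26886 bp in p30 cells, untreated and with LPS, where all genes had medians of 9212, 7522, 9480 and 9348 bp. *Fos*, *Fosl2* and *Jun* are alone in their loci, while *Fosl1* shares its locus with 11 other protein-coding genes, *Junb* with 9, *Fosb* and *Batf2* with 7 each, *Jund* with 5, and *Batf* and *Batf3* with 2 each, whose peaks are counted too. *Fosb* had the largest cover of the 10 in all 4 lists, from 33561 to 37492 bp, and *Jun* the smallest, from 6501 to 9508 bp.

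The locus of *Batf* gained most H3K27ac with LPS among the 10. In p42 cells its cover of 13306 bp grew to 20072 bp, and in p30 cells 11364 bp grew to 27809 bp, a ratio of 1.51 and 2.45. Among genes with cover in both lists of a line, the ratio was larger than that of 98.7% in p42 and 99.4% in p30. The medians over these genes were 0.837 and 0.992. The promoter peak of *Batf* itself narrowed in p42, from a width of 1628 bp to 1468 bp, and widened in p30, from 1397 bp to 2081 bp.

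The other loci moved less. Cover rose with LPS in 4 of the 10 loci in p42, *Jun*, *Batf*, *Batf2* and *Batf3*, where 16.6% of all genes rose, and in 6 in p30, *Fosb*, *Fosl1*, *Fosl2*, *Jun*, *Jund* and *Batf*, where 48.2% rose. *Batf2* counted with a rise of 2 bp and *Jun* with 94 bp in p42. *Batf3*, a gene known for its part in dendritic cells, had 26079 bp and 31230 bp in p42, and 32585 bp and 32193 bp in p30. For *Jun* in p30 the cover was 7255 bp untreated and 9508 bp with LPS. A rise of at least 1.5 times was seen for *Batf* alone in either line, where 2.13% of all genes had it in p42 and 5.52% in p30. In p42 this call ended at a q-value under 1e-05, where the *Batf* ratio was 1.41, and with 100 kb flanks, where it was 1.12. *Fos* cover was smaller with LPS in both lines, at ratios of 0.897 and 0.941, but at a q-value under 1e-05 it was larger with LPS in p30. At the authors' threshold the number of *Fos* peaks rose by 6 in p42 and by 1 in p30.

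Between the lines, 3 of the 10 loci had more cover in untreated p42 than in untreated p30 cells, *Fos*, *Fosl2* and *Batf*, where 43.8% of all genes did. With LPS only *Fos* did, where 17.3% of all genes did, while with equal numbers of peaks per list *Fosl2*, *Batf2* and *Batf3* did so too and 28.2% of all genes did. The ratio of p42 to p30 cover at *Fos* was 1.28 untreated and 1.22 with LPS, and it was the only locus of the 10 above 1 in both conditions, joined by *Fosl2* with equal numbers of peaks. None of the 10 differed by at least 1.5 times in favor of p42, as 6.52% of all genes did untreated and 3.10% with LPS.

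**Figure D2:**
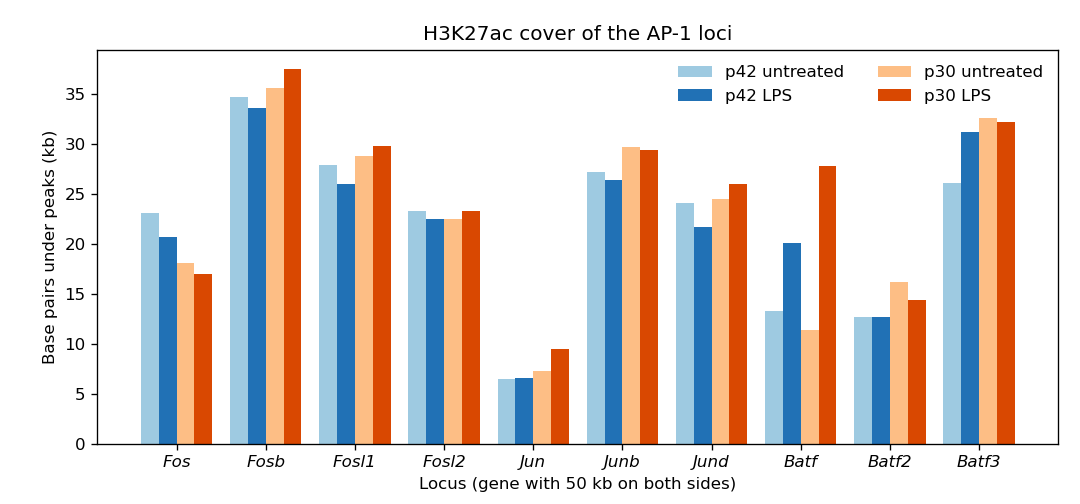
Base pairs under H3K27ac peaks, in kb, in the loci of the 10 AP-1 genes, with 1 bar per list (p42 and p30, untreated and LPS) and no error bars, since each list is a single call. *Batf* rises with LPS in both lines, from 13.3 to 20.1 kb and from 11.4 to 27.8 kb, and *Fos* is higher in p42 than in p30 in both conditions.

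Merging the 4 H3K27ac lists gave 264 regions in the 10 loci, of which 96 (36.4%, 30.8 to 42.3%) were present in all 4 lists, where 30.9% of all regions were. Regions present with LPS and absent untreated, called gained, numbered 41 in p42 (15.5%, 11.7 to 20.4%) and 71 in p30 (26.9%, 21.9 to 32.5%), where 8.52% and 19.1% of all regions were gained. Lost regions numbered 36 and 29, or 13.6% and 11.0%, where 22.6% and 19.2% of all regions were lost. With equal numbers of peaks per list, 48 regions were gained in p42 and 50 in p30 and 19 were lost in each, where 13.6% and 16.5% of all regions were gained and 18.6% and 17.7% lost. These lists merge to fewer regions, 147141 beside 183190 over all chromosomes, so the 264 does not apply. The counts of the loci are therefore not given as shares and cannot be read against those of all regions. Of the 264 regions, 13 were gained in both lines, or 4.92% (2.90 to 8.24%) beside 1.66% of all regions. *Batf* held 7 of these 13, *Fosb* 3, *Fosl2* 2 and *Fos* 1.

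At *Batf*, 9 regions were gained in p42 and 22 in p30, among 33 regions in all. The 7 gained in both lines lay at -21.8, -20.4, -19.7, 4.7, 9.9, 13.9 and 22.2 kb from the start, 3 upstream and 4 within the gene. With LPS the region at -20.4 kb ranked at 37.3% of the list in p42 and 20.0% in p30, and that at -19.7 kb at 22.4% in p30. A CEBPA site of 3 lists, at -19.9 kb, lay between them. A further 14 regions were gained in p30 and absent from both p42 lists, all but 1 of them shorter than 1 kb. How many of all regions did so was not counted. The strongest distal region of the locus, at 18.5 kb, was present throughout, ranking at 4.00% and 2.70% in p42 cells and at 3.34% and 1.80% in p30 cells.

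The *Batf* region at -26.8 kb was present in all 4 lists and differed between the lines. It ranked at 7.31% and 8.50% in p42 cells, and at 22.4% and 26.9% in p30 cells, with fold enrichments of 22.2 and 20.9 against 5.12 and 4.49. It held the *Batf* -27.0 kb CEBPA site shown above with its CEBP:ATF4 letters. With anti-CEBPA that site was at place 1858 in p42 and 3940 in p30, and with anti-ER at 230 and 345. Its anti-ER fold enrichment was 56.1 in p42 and 64.5 in p30.

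At *Fosl1*, 3 regions near the start were present in both p42 lists and absent from both p30 lists. They lay at -3.2, -2.5 and 0.9 kb, with ranks of 33.9%, 32.2% and 44.0% untreated and 68.0%, 22.5% and 35.4% with LPS. Such regions made up 3 of the 31 at *Fosl1*, 5 of the 264 in all 10 loci (1.89%, 0.812 to 4.36%) and 2.28% of all regions. The opposite kind, in both p30 lists and neither p42 list, made up 4 of the 31 at *Fosl1*, all of them downstream of the gene, 11 of the 264 (4.17%, 2.34 to 7.31%) and 6.67% of all regions. H3K4me1 was present at the 2 upstream regions in p42 and absent in p30. The *Fosl1* -2.9 kb CEBPA site lay between them and was found in all 4 lists, at 6.68% and 38.3% of the anti-CEBPA lists and 10.2% and 29.1% of the anti-ER lists, p42 and p30. The H3K27ac fold enrichments of the 3 regions between 2.95 and 6.76, and at a q-value under 1e-05 the count of such regions was 2.

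At *Fos*, 21 regions were counted. The best distal region, at -4.5 kb, took places 3269 and 5876 in the p42 lists and places 7356 and 17155 in the p30 lists, and held the site at -5.0 kb, which was found in all 4 CEBPA lists. In p30 with LPS it was behind the region at -18.9 kb, at place 13215. The region at 16.4 kb ranked at 7.58% and 6.70% in p42 and at 21.6% and 22.4% in p30. It held the *Fos* +16.8 kb site, found in all 4 lists, and a site at 15.5 kb found in 3. The untreated p30 peak of this region did not reach the +16.8 kb site. In the regions at -4.5 and 16.4 kb the p42 rank was better than the p30 rank in either condition. The strongest *Fos* site, at -41.8 kb, lay in no H3K27ac and no H3K4me1 peak of any list.

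**Figure D3:**
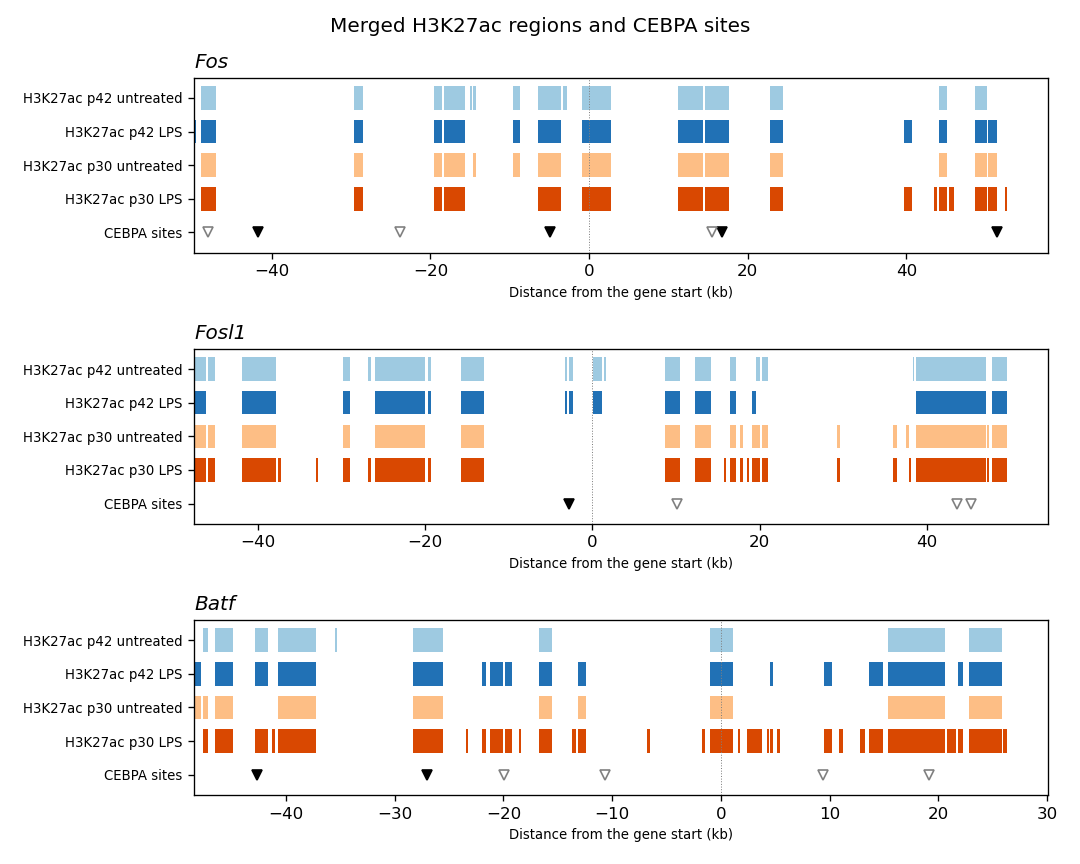
Merged H3K27ac regions at *Fos*, *Fosl1* and *Batf* by distance from the gene start in kb (direction of transcription to the right), colored in each list in which they were present and drawn over the whole merged extent. Filled triangles are CEBPA sites of all 4 lists and open triangles those of 1 to 3 lists; the regions next to the *Fosl1* start are colored in p42 only, and the added *Batf* regions appear in the LPS lists.

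The best distal regions of the other loci were present in all 4 lists. At *Fosb* it lay at -35.2 kb and ranked between 4.78% and 8.99%. At *Fosl2* it lay at -22.9 kb, between 5.33% and 14.2%, and at *Jun* at -42.4 kb, between 16.2% and 35.8%. Those of *Junb* at 12.9 kb and *Jund* at -5.3 kb ranked between 7.17% and 11.7% and between 8.74% and 10.8%. At *Batf3* it lay at 13.5 kb and ranked at 2.85% and 3.63% in p42 and at 1.58% and 3.87% in p30, and at *Batf2* at -66.5 kb, between 14.7% and 20.8%. *Jun* thus had the weakest of these among the Fos and Jun genes. The best distal region of *Fosl1* lay at -40.6 kb, between 3.43% and 8.81%. The region named was not the best in every list. In both p42 lists the *Fosl2* region at -13.0 kb ranked better, at 6.66% and 8.45%, beside 8.63% and 14.2% at -22.9 kb. In p30 it ranked worse, at 14.0% and 12.7%, beside 5.33% and 7.10%. It held a CEBPA site of all 4 lists. At *Jun* the region at -31.7 kb ranked better in p30 with LPS, at 16.3%.

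The best-ranked distal regions gained with LPS were weaker. At *Fosl2* a region at 33.1 kb was gained in both lines, at 24.7% of the p42 and 40.6% of the p30 list with LPS. At *Fos* a region near the downstream end of the locus was gained in p42, at 27.2%, and was present in both p30 lists, at 44.2% and 19.6%. At *Batf3* a region at 25.9 kb was gained in p42, at 19.4%, and ranked at 43.5% and 35.0% in p30, and a CEBPA site of all 4 lists overlapped it. At *Fosb* a region at -28.0 kb was gained in p30, at 43.8%, and was absent from both p42 lists. The region next to it, at -28.5 kb, was present in both p42 lists, at 18.2% and 24.2%, and gained in p30 at 91.6%. At *Fosl1* the region at -19.4 kb, gained in p30 at 56.9%, was present in both p42 lists. At *Jund* a region at -40.9 kb was gained in p30, at 68.6%. The remaining ones, at *Jun* (-46.9 kb), *Junb* (5.5 kb) and *Batf2* (-63.1 kb), were gained in p42 at 54.3% to 73.0% of the list.

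H3K4me1, measured untreated only, covered the *Fos* locus most densely. Its cover there was 45142 bp in p42, or 43.7% of the locus, and 54922 bp in p30, or 53.1%, more than at 97.8% and 97.3% of all genes. *Batf3* had 32272 bp and 55665 bp, or 29.0% and 50.1% of its locus. *Batf2* had least, with 4810 and 3600 bp. At *Fos* H3K4me1 cover was larger than H3K27ac cover in both lines, and the 2 marks went apart there, since H3K4me1 was larger in p30 and H3K27ac in p42. Cover was larger in p30 in 8 of the 10 loci, where 76.0% of all genes had it larger, *Fosl1* and *Batf2* being the exceptions. The p30 list was also longer, with 168035 peaks beside 134658, and with equal numbers of peaks cover was larger in p30 in 7 loci, where 63.9% of all genes had it larger.

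All 10 loci held H3K4me1 peaks in both lines, 293 in p42 and 345 in p30, where 71.3% and 72.6% of all loci held any. With equal numbers of peaks the order turned, with 293 in p42 and 281 in p30. Of the H3K27ac regions, 120 of 264 (45.5%, 39.6 to 51.5%) overlapped H3K4me1 in p42 and 137 (51.9%, 45.9 to 57.9%) in p30, where 36.4% and 42.8% of all H3K27ac regions did. At the promoter, H3K4me1 was found in p42 for *Fos*, *Jund* and *Batf3*, where 15.6% of all genes had it, and in p30 for these and for *Fosl2* and *Junb*, where 21.0% did.

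**Figure D4:**
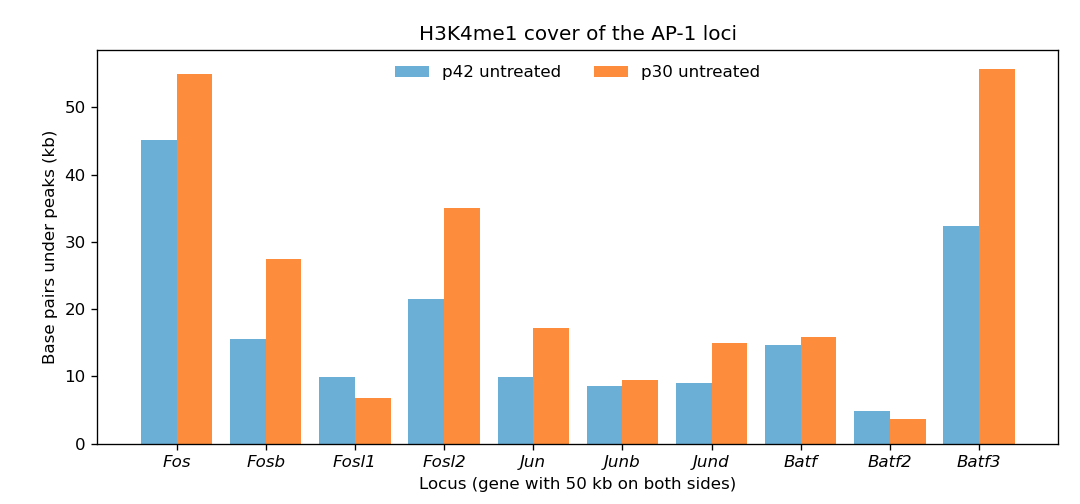
Base pairs under H3K4me1 peaks, in kb, in the 10 AP-1 loci in untreated p42 and p30 cells, 1 bar per list with no error bars, since each list is a single call. *Fos* (45.1 and 54.9 kb) and *Batf3* (32.3 and 55.7 kb) stand highest, and *Fosl1* and *Batf2* are the only loci with the lower bar in p30.

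CEBPA was asked for at the same loci with both antibodies. At least 1 site lay in 9 of the 10 loci in p42 and 8 in p30 with anti-CEBPA, where 86.7% and 79.6% of all loci had one, and in 9 and 10 with anti-ER, where 70.5% and 79.6% had one. *Jund* had no site with anti-CEBPA in either line and only a weak site with anti-ER in p30, at 96.3% of that list. *Fosb* had 7 and 5 anti-CEBPA peaks and 10 and 10 anti-ER peaks in p42 and p30, more than any other of the 10 with anti-ER. With anti-CEBPA *Batf3* had 7 as well in p42 and *Batf* 5 in p30.

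Merged over the 4 lists, the loci held 59 sites, 12 at *Fosb*, 10 each at *Fosl2* and *Batf3*, 7 at *Fos*, 6 at *Batf*, 5 at *Jun*, 4 at *Fosl1*, 2 each at *Junb* and *Batf2*, and 1 at *Jund*. Of these, 19 (32.2%, 21.7 to 44.9%) were found in all 4 lists, where 20.9% of all sites were. They lay in 8 of the 10 loci, where 56.7% of all loci had such a site. As many, 19, were found in a single list, where 42.6% of all sites were, and 12 of these came from the p30 anti-ER list. At 2 sites both antibodies gave a peak in 1 line and none in the other. The share of all sites that did so was not counted. The p42 site lay at -28.8 kb of *Fosb*, at 95.5% of the anti-CEBPA and 47.5% of the anti-ER list, and the p30 site at -45.8 kb of *Jun*, at place 30886 of 31851 with anti-CEBPA and at 38.9% with anti-ER. Both were near the end of their anti-CEBPA list.

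**Figure D5:**
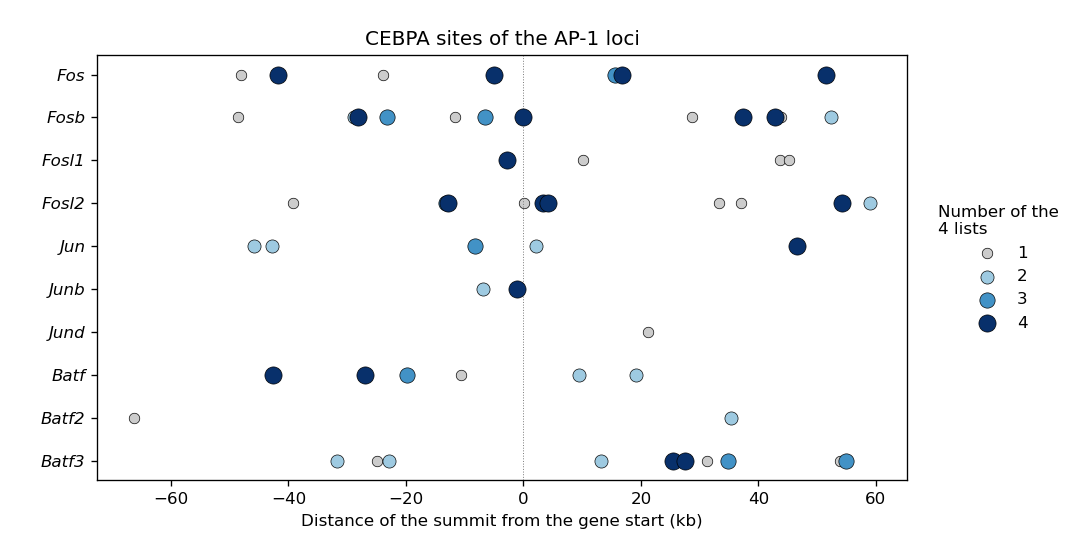
The 59 merged CEBPA sites of the 10 AP-1 loci by distance of the summit from the gene start in kb, with 1 row per gene. Larger and darker points were found in more of the 4 lists (p42 and p30, anti-CEBPA and anti-ER); *Fos*, *Fosb* and *Fosl2* hold 4 sites of all 4 lists each, and *Jund* and *Batf2* hold none.

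In the p42 lists the strongest site was that of *Fosl2* at 4.2 kb, in an intron. It was at place 243 of 47517 in p42 and 548 of 31851 in p30 for anti-CEBPA. For anti-ER it was at place 199 of 23248 and 473 of 34006. Its fold enrichments were 66.7, 33.4, 61.2 and 55.7. The *Fos* site at -41.8 kb took places 791 and 446 in the anti-CEBPA lists and 1425 and 1215 in the anti-ER lists. It was ahead of the *Fosl2* site in the p30 anti-CEBPA list and behind it in the other 3, and in the p30 anti-ER list the *Batf* site at -27.0 kb, at place 345, was ahead of both. *Batf3* had its best site at 27.5 kb, at 6.65% and 6.86% of the anti-CEBPA and 9.84% and 4.24% of the anti-ER lists. Those of *Jun* at 46.6 kb and *Fosb* at -28.2 kb lay between 20.7% and 63.1% of the lists.

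Promoters were bound at *Fosb* and *Junb* in all 4 lists, where 3.36% of all genes had a promoter site in all 4. By list, 2 of the 10 promoters were bound with anti-CEBPA in p42 and in p30, where 6.17% and 6.03% of all were, 2 with anti-ER in p42, where 5.51% were, and 3 in p30, where 9.30% were. The additional gene there was *Fosl2*, with a site at 94.3% of the list. At *Fosb* the summit of the p42 anti-CEBPA site lay 99 bases upstream of the start, within the promoter letters shown above, and the site ranked at 35.5% and 51.3% of the anti-CEBPA lists and 80.6% and 34.2% of the anti-ER lists. At *Junb* the summit lay at -1073 bases, just outside the promoter window that the peak reached, and the site ranked at 49.5%, 31.0%, 51.7% and 27.1% in the same order. *Fos*, *Jun* and *Jund* had no site at the promoter. *Jun* had a weak anti-CEBPA site in its exon, 2060 bases downstream of the start, at 76.2% and 95.8%.

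Of the 59 sites, 50 (84.7%, 73.5 to 91.8%) overlapped H3K27ac in at least 1 list, where 35.2% of all merged CEBPA sites did, and 33 (55.9%, 43.3 to 67.8%) in all 4, where 24.2% did. Neither H3K27ac nor H3K4me1 was found at 7 (11.9%, 5.87 to 22.5%), where 59.9% of all sites had neither. The AP-1 loci also had a larger H3K27ac cover than the median locus, and its part in these shares was not tested. By position, 38 summits lay between genes, 14 in introns, 5 in exons and 2 in promoters, those of *Fosb* and of its neighbor *Vasp*. The 7 sites without either mark included those of *Fos* at -41.8 kb, *Fosl2* at 54.2 kb and *Jun* at 46.6 kb, each found in all 4 lists.

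The letters at the sites were set beside those of the whole lists. Within 200 bp around the summit TTGCNNAA was found at 16 of 35 p42 and 14 of 30 p30 anti-CEBPA peaks of the AP-1 loci, or 45.7% (30.5 to 61.8%) and 46.7% (30.2 to 63.9%), where 50.7% and 53.0% of the lists held it. With anti-ER it was found at 15 of 34 (44.1%, 28.9 to 60.5%) in p42 and 18 of 48 (37.5%, 25.2 to 51.6%) in p30. There 51.7% and 47.0% of the lists held it. The CEBP:AP1 letters TGTTGCAA were found at 5 of 35 (14.3%, 6.26 to 29.4%) and 3 of 30 (10.0%, 3.46 to 25.6%), where 6.35% and 5.90% of the lists held them. With anti-ER they were found at 5 of 34 (14.7%, 6.45 to 30.1%) in p42 and 5 of 48 (10.4%, 4.53 to 22.2%) in p30, where 5.36% and 4.98% held them. The share was higher at the AP-1 loci in each list, and the intervals contained the share of the list except with anti-ER in p42. These 4 counts are not independent, as the lists share sites. The AP-1 letters TGACTCA were found at 1, 0, 1 and 2 sites in p42 and p30 with anti-CEBPA and p42 and p30 with anti-ER, where 4.39%, 4.54%, 6.43% and 6.17% of the lists held them. In all, 8 planned motifs and 1 added later were searched in each list, and the CEBP:AP1 intervals are only part of these comparisons.

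Genes that act with AP-1 were counted in the same way. Of 17 other AP-1 and dimer partner genes, such as *Jdp2*, *Atf4* and *Maff*, 15 had promoter H3K27ac in all 4 lists, and 5 had a promoter CEBPA site in all 4, beside 46.6% and 3.36% of all genes. Their cover rose with LPS in 2 of 17 in p42 and 8 of 17 in p30, beside 16.6% and 48.2% of all genes. Of 15 with promoter peaks 1 had a better rank with LPS in p42 and a worse one in p30, beside 3.65%. Of 16 upstream genes, such as *Srf* and *Elk1*, all 16 had promoter H3K27ac in all 4 lists and 1 had a promoter CEBPA site in all 4. Their cover rose in 3 in p42 and 6 in p30, and none of the 16 moved as *Fos* and *Fosb* did. The same shares of all genes apply to them.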

How the data were processed

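ChIP-seq peak lists of mm39 were used as deposited. According to its methods, the study trimmed reads with Trim Galore 0.6.6, aligned them with Bowtie2, excluded duplicates marked by Picard, and called narrow peaks with MACS2 against input, on pooled replicates for H3K27ac and H3K4me1. The deposited lists hold the authors' fold enrichment (a ratio to the local background), −log10 p-value and −log10 q-value for every peak with a q-value up to 0.05. Peaks were ranked and filtered by these values inside a list, never across lists. The lists do not give depth. A human ATF4 list was not used.

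Groups came from the sample labels. Peaks were assigned by summit to GENCODE genes, merged across lists at an overlap of 1 bp, and counted beside all 21757 protein-coding genes. Shares for a comparison of ranks are over the genes with a promoter peak in each list compared, and those for cover over genes with cover in at least 1. The gene start was the start of the canonical transcript. Per gene, the text names the best CEBPA site of all 4 lists, sites of 1 line found with both antibodies, and the best distal H3K27ac region, overall and, by rank with LPS in the line that gained it, among those gained. The other *Fos*, *Fosl1* and *Batf* sites and regions, the *Fos* promoter and the TTACNNAA letters were chosen after their values were seen. The genes and lists were chosen with earlier results of these data known. Alternatives were q-values under 0.01 and 1e-05, equal numbers of peaks, other flanks, promoters, windows and ranks, and, added after the data were seen, another gene start and a 1.5-fold rule. The steps were tested on simulated data, and 208 of 208 planted region classes were recovered. Python 3.11.15, numpy 2.4.6, pandas 2.3.3, scipy 1.17.1, pysam 0.24.0 and matplotlib 3.10.9 were used.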

Additional observations from a re-analysis of the deposited data

Results flagged for a closer look

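At all 7 AP-1 promoters with an H3K27ac peak in the 4 lists, the rank moved in opposite directions with LPS in p42 and p30 cells. It did so for 49.4% of all genes with such a peak in the 4 lists. On the log2 scale, the improvement in p42 minus that in p30 was 0.90 for *Fos* and 1.17 for *Fosb*, which improved in p42. It was -0.87 for *Fosl2*, -0.81 for *Jun*, -1.16 for *Junb*, -1.14 for *Jund* and -0.63 for *Batf*, which improved in p30. Each group has 1 pooled list, so the difference was not tested. The p42 list shortened with LPS and the p30 list did not, which touches every rank in percent, and its part in these values was examined only by taking equal numbers of peaks, which left all 7 directions as they were. Ranked by fold enrichment, *Fosl2* and *Junb* did not improve in p30.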

How the results depend on the processing

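Of 168 values that 30 counts over the AP-1 genes took under the alternatives, 113 were within 1.5 times of the value reported. Some differences turned: with equally many peaks, H3K4me1 peaks went from fewer in p42 to 293 in p42 and 281 in p30, and anti-CEBPA sites from more in p42 to 23 in p42 and 29 in p30. The p30 promoter ranks of *Fosl2* and *Junb* did not improve when ranked by fold enrichment, and *Fos* cover in p30 was larger with LPS at a q-value under 1e-05. The other 55 were as follows, and the cause was not tested beyond what each setting does by construction. At a q-value under 1e-05, H3K4me1 peaks in the loci fell to 164 in p42 and 194 in p30, H3K27ac regions gained with LPS to 22 in p42 and 38 in p30, and lost regions to 18 and 14. With regions required to be present at 1e-05 and absent at 0.05, 13 and 21 were gained, 9 and 7 were lost, and 5 were gained in both lines. With equally many peaks taken per list, 19 regions were lost in p42 and 19 in p30, 4 loci had more cover in p42 with LPS, and 23 sites were left with anti-CEBPA in p42. With 20 kb flanks, the H3K4me1 peaks were 135 and 159, gained regions 22 and 33, lost regions 15 and 11, and regions gained in both lines 8. CEBPA sites then numbered 18 in p42 and 16 in p30 for anti-CEBPA, 15 and 23 for anti-ER, with 10 in all 4 lists, and 5 loci had more cover in p42 with LPS. With 100 kb flanks, the H3K4me1 peaks were 497 and 619, lost regions 84 and 59, and regions gained in p30 142. CEBPA sites then numbered 63 in p42 and 51 in p30 for anti-CEBPA, 62 and 96 for anti-ER, with 30 in all 4 lists, and cover rose with LPS in 2 loci in p42. With only peaks nearest to the AP-1 gene, the H3K4me1 peaks were 184 and 222, gained regions 21 and 41, lost regions 13 and 5, anti-ER sites 20 and 30, and 3 loci had more cover in p42 with LPS. Ranked by fold enrichment, 3 promoters ranked better with LPS in p30. With a change of at least 1.5 times required, cover rose in 1 locus in each line, 1 promoter ranked better in p42 and 0 in p30, and 0 loci had more cover in p42, untreated or with LPS. The *Batf* cover ratio ranged from 1.12 with 100 kb flanks to 2.10 with 20 kb flanks in p42, and from 1.70 to 2.92 in p30. No paired analysis was possible because each list pools its replicates or holds 1 library, and leaving out a replicate was not run for the same reason. The lists do not give the depth, so a peak absent from a list may be one that was not detectable.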
